A study of Rattus norvegicus with 18 samples.

Results

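The mitochondrial respiratory chain genes described here are the rat genes whose symbols begin with Nduf, Uqcr, Sdha to Sdhd, Cox4 to Cox8 or Atp5. They were taken from array features (probe sets) annotated with exactly 1 symbol, and where a gene had several, the brightest on average was used. The rule found 102 probe sets for 89 genes, of 13810 genes with 1 symbol on the arrays. Of the 89, 86 were read on array type A and 3 (Uqcrc2, Ndufaf1 and Ndufaf7) on type B. Signals were high enough to test 85 of them, among 10165 genes tested in all. A further 7 probe sets with several symbols, at least 1 of which matched the rule, were left out, and among them was that of Cox7a2.

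The samples were total RNA from the lungs of male Sprague-Dawley rats, hybridised to Affymetrix arrays of type A and of type B. Rats breathed mainstream smoke of the reference cigarette 2R4F through the nose, at concentrations of 300 or 600 µg/l, measured as total particulate matter (TPM), or were sham-exposed. Sessions lasted 2 h on 5 days a week for 13 weeks, followed by a recovery of 2, 6 or 20 h before sampling. Each of the 9 conditions had 1 array of each type, 18 arrays in all, and the labels give neither the rats' age nor the number of rats behind an array. The labels name no allele and no drug in any group.

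No condition had a replicate array. Each exposure was therefore compared with sham over its 3 recovery times, and p-values reflect no more than the spread among these arrays, in which array noise and any change of the smoke difference with time are mixed. The number of arrays limits the precision. For the 4 smoke samples at 20 h another label says sham, against their titles and source names. Among type B arrays, that labelled sham at 2 h lies close to a smoke array, that of 300 µg/l at 2 h. The median absolute log2 difference between them was 0.090, against 0.163 to 0.243 for the 35 other pairs of type B arrays. Whether it fits its label was not tested. This touches the values of 3 chain genes and, among the other genes given, those read on type B. It also touches the shares of all probe sets and, as p-values were adjusted over both array types together, the adjusted p of type A genes. Surfactant and other alveolar type 2 markers, which define lung tissue, were bright on every array, with a summed signal of 98426 to 115695.

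The respiratory chain carries electrons from NADH and succinate to oxygen across the inner mitochondrial membrane. Complex I oxidises NADH and complex II oxidises succinate, both passing electrons to ubiquinone. Complex III hands them to cytochrome c and complex IV (cytochrome c oxidase) to oxygen. Complexes I, III and IV pump protons, and complex V (ATP synthase) uses the gradient to make ATP. Most subunits are encoded in the nucleus, and some complex IV subunits have separate isoforms for lung, heart and skeletal muscle or testis.

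Many nuclear genes of the chain are known targets of the transcription factors NRF1, GABP (an ETS factor) and YY1. Promoter windows of 300 bases, from 250 bases before to 50 after the annotated start, were found in RefSeq (build GRCr8) for 81 of the 89 genes. Exact motif letters were searched on both strands. The NRF1 motif GCGCATGCG was in 7 of the 81 windows (8.64%) and in 1.52% of all 33469 windows of the table. The ETS motif CCGGAAG was in 25 windows (30.9%, against 8.75% of all). The YY1 motif AAGATGGCG was in 11 windows (13.6%, against 1.73% of all). At least 1 of these 3 motifs was present in 36 windows (44.4%, against 11.3%). The motif of estrogen-related receptors, TCAAGGTCA, was in 2 windows, those of Atp5mc3 and Sdhd (2.47%, against 0.433%). The hypoxia response core ACGTG was in 21 (25.9%, against 19.3%) and TATAAA in 8 (9.88%, against 14.2%). The GC content of the windows had a median of 56% and ran from 43% (Cox7b) to 72.7% (Ndufv2), and its median over all windows was 51.7%. A match is a description of the sequence and not a bound site, and no motif search tested a difference.

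**Figure D1:**
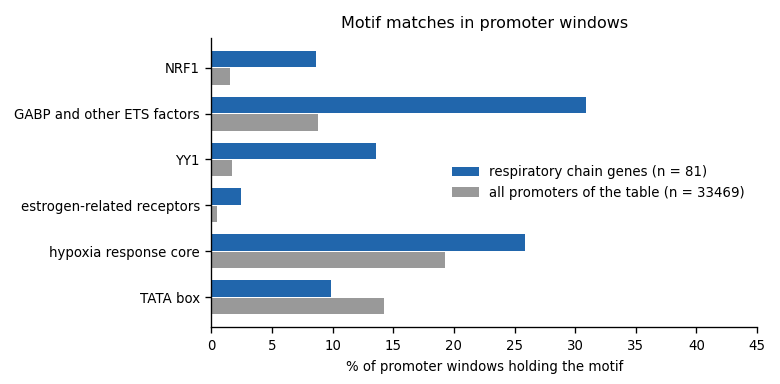
Share of promoter windows (x axis, %) that hold each motif on either strand, for 81 respiratory chain genes (blue) and for all 33469 windows of the RefSeq table (grey). The ETS motif is in 30.9% of the chain's windows and 8.75% of all, while TATAAA is in 9.88% and 14.2%.

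The promoters of 4 genes show these features beside the expression values that follow. The 250 bases before the annotated start are given 5′ to 3′ on the gene's strand, with motif matches in capitals. Ndufa4l2 is shown because it differed most between exposures. Its stretch (GRCr8, chr7:65241919-65242168, plus strand) held none of the 6 motifs, which says nothing about the factors themselves. Cox8a (chr1:213833624-213833873, minus strand) is the ubiquitous isoform of a complex IV subunit and held 2 ETS matches with a hypoxia core. Cox8b (chr1:205408274-205408523, minus strand) is the muscle isoform of the same subunit and held a TATAAA match with 3 hypoxia cores. Atp5me (chr14:1464610-1464859, plus strand) encodes ATP synthase subunit e and held overlapping NRF1 matches with an ETS match and a hypoxia core.
Ndufa4l2: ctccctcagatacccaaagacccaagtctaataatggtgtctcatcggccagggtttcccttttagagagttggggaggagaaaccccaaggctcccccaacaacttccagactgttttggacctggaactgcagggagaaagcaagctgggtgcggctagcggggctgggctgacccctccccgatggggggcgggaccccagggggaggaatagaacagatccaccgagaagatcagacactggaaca
Cox8a: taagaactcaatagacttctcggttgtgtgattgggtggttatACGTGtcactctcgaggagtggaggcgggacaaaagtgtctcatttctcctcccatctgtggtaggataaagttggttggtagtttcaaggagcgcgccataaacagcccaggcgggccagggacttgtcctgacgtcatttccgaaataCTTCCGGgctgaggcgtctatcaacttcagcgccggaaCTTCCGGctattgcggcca
Cox8b: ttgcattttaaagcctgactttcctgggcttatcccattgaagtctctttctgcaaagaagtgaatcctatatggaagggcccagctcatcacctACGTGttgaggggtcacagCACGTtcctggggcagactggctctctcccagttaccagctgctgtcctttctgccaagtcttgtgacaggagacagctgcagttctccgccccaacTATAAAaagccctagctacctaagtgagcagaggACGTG
Atp5me: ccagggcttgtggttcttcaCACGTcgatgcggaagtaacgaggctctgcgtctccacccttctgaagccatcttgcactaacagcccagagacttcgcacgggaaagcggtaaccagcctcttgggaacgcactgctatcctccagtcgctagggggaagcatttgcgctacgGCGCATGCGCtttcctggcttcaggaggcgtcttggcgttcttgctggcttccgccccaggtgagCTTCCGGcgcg

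Comparing 600 µg/l with sham addresses the lung's response to the higher concentration of smoke. Among respiratory chain genes the differences were small. The median fitted log2 difference of the 85 tested genes was 0.01, with quartiles of -0.05 and 0.06, and 45 values were positive and 40 negative. The median over all 19638 tested probe sets was -0.01. Fitted values refer to log2(signal + 50), a scale on which the changes of dim genes come out smaller than their signal ratios. At an adjusted p under 0.05 (limma, Benjamini-Hochberg over all probe sets) 0 of the 85 genes passed, beside 0.514% of all probe sets. At an unadjusted p under 0.05, 2 genes passed (2.35%), beside 10.3% of all probe sets.

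The size of the differences can be bounded. The 95% interval of the difference lay within 0.5 on the log2 scale (1.41-fold) in either direction for 77 of the 85 genes (90.6%), and for 69.1% of all probe sets. It lay within 2-fold for all 85 in each of the comparisons of exposures and of times. The 8 genes with wider or shifted intervals at 600 µg/l were Ndufa4l2, Ndufb8, Uqcr10, Cox8b, Atp5pb, Ndufaf8, Sdhaf2 and Sdhaf4. The median SE was 0.09 for the chain and 0.12 for all probe sets. At mean signals of at least 1000, the median absolute log2 difference was 0.05 over 53 chain genes and 0.10 over 4638 probe sets. No test of the chain against other genes was made.

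**Figure D2:**
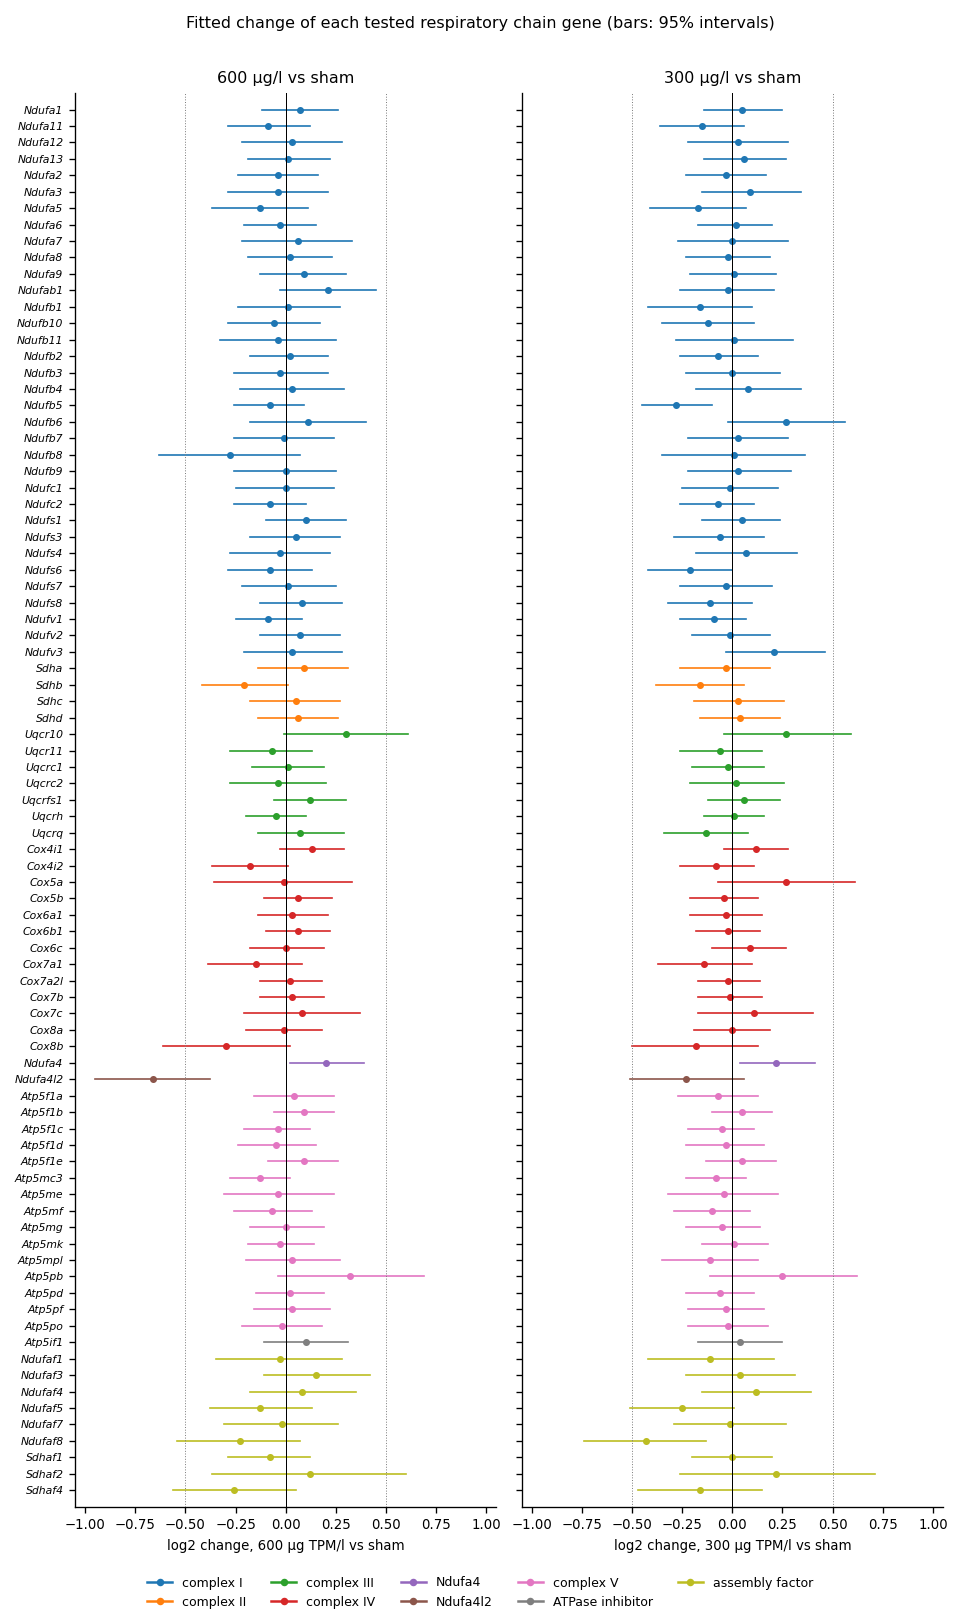
Fitted log2 difference from sham (x axis) of each of the 85 tested respiratory chain genes at 600 µg TPM/l (left) and 300 µg TPM/l (right), coloured by complex, with 95% intervals as bars. Dotted lines mark 0.5 in either direction, and Ndufa4l2 at 600 µg/l (-0.66) is the only point beyond them.

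**Figure D3:**
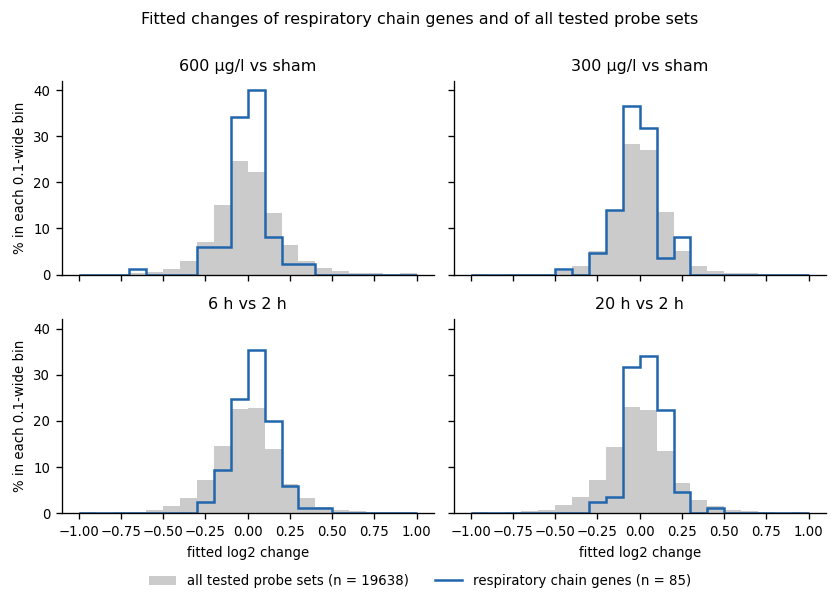
Share of genes (y axis, % in each bin 0.1 wide) by fitted log2 difference (x axis) for the 85 respiratory chain genes (blue line) and all 19638 tested probe sets (grey) in 4 comparisons. At 600 µg/l, 74.1% of the chain genes and 46.9% of all probe sets lie below 0.1 in absolute value.

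Ndufa4l2, a paralogue of Ndufa4 known as a hypoxia-inducible gene and as a marker of pericytes, was the gene nearest to the threshold. Its signals (probe set 1389018_at, type A) in sham were 345.5 at 2 h, 343.1 at 6 h and 445.2 at 20 h. They were 303.0, 290.3 and 348.8 at 300 µg/l at the same times, and at 600 µg/l they were 246.1, 148.8 and 279.7. Every 600 µg/l array was below every sham array, and at each time the order was sham, 300 and 600 µg/l from high to low. The groups' means were 377.9 ± 58.3 in sham, 314.0 ± 30.8 at 300 µg/l and 224.9 ± 68.0 at 600 µg/l (SD, n = 3 arrays, 1 per time). The fitted log2 difference of 600 µg/l from sham was -0.66 (SE 0.13, 95% interval -0.95 to -0.38), with a limma p of 0.000401 and an adjusted p of 0.061, so it did not pass. The difference at 300 µg/l was -0.23 (SE 0.13, adjusted p = 0.96).

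The array of 600 µg/l at 6 h gave the lowest Ndufa4l2 signal, below the 183.8 that the filter asks of a type A probe set on at least 3 arrays. Without that condition the difference was -0.50 (adjusted p = 0.17), and without the 20 h conditions, whose labels conflict, it was -0.70 (adjusted p = 0.24). Over 19 alternative settings it ran from -0.77 to -0.45, with adjusted p from 0.052 to 0.24.

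Other markers of pericytes and smooth muscle were read beside it, since lung tissue mixes many cell types. Of 12 such markers, not counting Ndufa4l2 and Cox4i2, none passed the test at 600 µg/l and 11 had negative differences, with a median of -0.19. Higd1b, a pericyte marker of the hypoxia-inducible domain family, differed by -0.19 and the G-protein signalling regulator Rgs5 by -0.42. The smooth muscle gene Smtn had the smallest p of the list (log2 -0.52, SE 0.11, adjusted p = 0.089 by limma), while smooth muscle actin Acta2 differed by -0.05 and smooth muscle myosin Myh11 by 0.08. Unadjusted p was under 0.05 for 4 of the 12, beside 10.3% of all probe sets. The summed signal of the list ran from 9004 to 10434 in sham, from 8490 to 9289 at 300 µg/l and from 8333 to 9039 at 600 µg/l. Some marker lists of other cell types also leaned to negative values at 600 µg/l with none passing, and others did not. All 6 tested T cell markers were negative (median -0.35), as were 8 of 9 endothelial markers (median -0.15) and 6 of 7 of alveolar type 1 cells (median -0.15). An unadjusted p under 0.05 was found for 4 of these 6, 3 of these 9 and 3 of these 7. Positive values were found for 8 of 10 alveolar type 2 markers (median 0.08) and 4 of 6 ciliated cell markers (median 0.07), with none passing. Here 0 of the 10 and 1 of the 6 had an unadjusted p under 0.05. Club and secretory cell markers were 4 positive and 4 negative, and 1 passed as lower. All 3 tested neutrophil markers were positive, and 1 passed as higher. The part of any of these cells in the Ndufa4l2 values was not tested. In bulk tissue, fewer cells of a type and less RNA per cell cannot be told apart.

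Ndufa4, once counted with complex I and now placed in complex IV, stood on the other side. Its signals (probe set 1371323_at) in sham were 2121.7, 1922.8 and 2245.6 at 2, 6 and 20 h. They were 2743.6, 2287.0 and 2337.3 at 300 µg/l, and 2513.1, 2426.9 and 2304.3 at 600 µg/l. All 6 smoke arrays were above all 3 sham arrays, although the gap was narrow at 20 h. The log2 difference was 0.20 at 600 µg/l (SE 0.08, adjusted p = 0.44 by limma) and 0.22 at 300 µg/l (SE 0.08, adjusted p = 0.79). Both comparisons share the sham arrays.

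**Figure D4:**
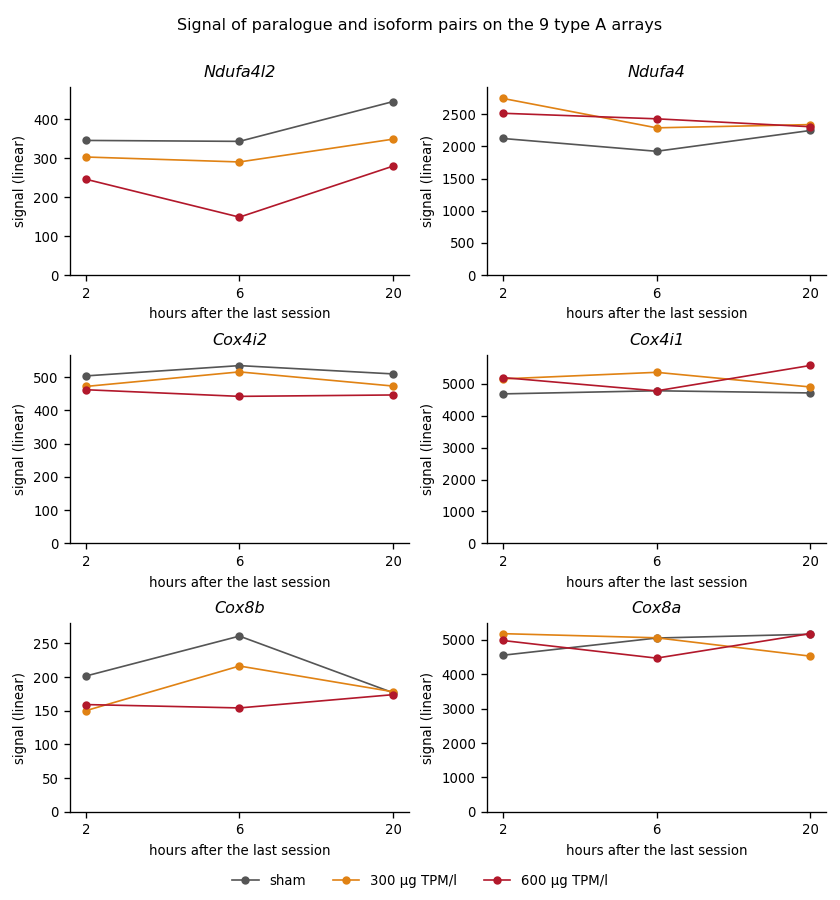
Linear signal (y axis, from 0, scaled per panel) of Ndufa4l2 and Ndufa4, Cox4i2 and Cox4i1, and Cox8b and Cox8a on type A arrays against hours after the last session, with 1 point per array and exposure by colour. For Ndufa4l2 and Cox4i2 the 600 µg/l points lie below the sham points at every time, and levels of different genes are not comparable.

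Complex I was represented by 34 genes, all of them tested. At 600 µg/l, 17 of their differences were positive and 17 negative, with a median of 0.01 and a range from -0.28 (Ndufb8) to 0.21 (Ndufab1). Ndufab1, the mitochondrial acyl carrier protein, read 826.2, 791.1 and 706.6 in sham and 882.2, 905.8 and 919.5 at 600 µg/l. Its 600 µg/l arrays were all above its sham arrays (log2 0.21, SE 0.11, adjusted p = 0.54). Ndufs1, the large iron-sulphur subunit, was also above without overlap, at 545.1 to 555.4 in sham and 571.7 to 626.1 at 600 µg/l (log2 0.10, SE 0.09).

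Ndufb8, an accessory subunit of the membrane arm, had its lowest signal, 140.6, at 600 µg/l and 2 h. Its other 8 arrays read 260.0 to 325.4. Its log2 difference of -0.28 (SE 0.16) includes that array. Ndufa1, a small membrane subunit and the brightest of the complex, read 3341 to 3883 in sham and 3439 to 4120 at 600 µg/l, overlapping ranges (log2 0.07, SE 0.09). Ndufs4, an accessory subunit whose loss is a known cause of mitochondrial disease, was the dimmest, at 231.5 to 244.7 in sham and 210.0 to 251.7 at 600 µg/l (log2 -0.03, SE 0.11).

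Complex II, or succinate dehydrogenase, also belongs to the tricarboxylic acid cycle. Sdha, its flavoprotein, differed by 0.09 (SE 0.10) at 600 µg/l, and the membrane anchors Sdhc and Sdhd by 0.05 (SE 0.10) and 0.06 (SE 0.09). Sdhb, the iron-sulphur subunit, read 1321.4, 1823.6 and 1458.9 in sham at 2, 6 and 20 h. With 600 µg/l it read 1320.8, 1303.9 and 1313.2, nearly flat over time and below all sham arrays, at 2 h by a margin of less than 1 signal unit. The log2 difference was -0.21 (SE 0.10, adjusted p = 0.51), and it was -0.10 without sham at 6 h, its highest array, and -0.11 without 600 µg/l at 6 h.

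All 7 tested genes of complex III had differences at 600 µg/l from -0.07 (Uqcr11) to 0.30 (Uqcr10), with a median of 0.01. Uqcr10, a small subunit, read 2235.3, 2204.4 and 2409.8 in sham and 2964.6, 2384.1 and 3183.5 at 600 µg/l. With 300 µg/l it read 2738.0, 3340.4 and 2316.2. The array of 600 µg/l at 6 h fell inside the sham range, and the difference did not pass (SE 0.14, adjusted p = 0.50). It was 0.17 without 600 µg/l at 20 h and 0.48 without 600 µg/l at 6 h. Uqcrfs1, the Rieske iron-sulphur protein, was at 1735.5 to 1834.6 in sham and 1864.6 to 2064.8 at 600 µg/l without overlap (log2 0.12, SE 0.08). Uqcrh, the hinge protein next to cytochrome c1, varied least of all members, with a coefficient of variation of 3.07% over the 9 arrays. Uqcrc2, a core protein read on type B, differed by -0.04 (SE 0.11), and by -0.08 (SE 0.14) without the B array labelled sham at 2 h. At 300 µg/l its difference of 0.02 became -0.02 without that array. A dimmer probe set of Uqcrc2 on type A, whose fit does not use that array, differed by -0.03 (SE 0.07) at 600 µg/l. At 300 µg/l the type A probe set differed by -0.12 (SE 0.07).

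Complex IV had 15 genes besides Ndufa4, of which 13 were tested. Their median difference at 600 µg/l was 0.02, from -0.30 (Cox8b) to 0.13 (Cox4i1). Cox4i1, the general isoform of the largest nuclear subunit, read 4679 to 4776 in sham and 4774 to 5567 at 600 µg/l, where the 6 h array lay inside the sham range. Cox4i2, the isoform known from lung and its vessels, read 503.9, 534.9 and 509.9 in sham, 472.2, 516.0 and 473.4 at 300 µg/l, and 462.4, 442.4 and 446.6 at 600 µg/l. It was lower at 600 µg/l than in sham on every array (log2 -0.18, SE 0.08, adjusted p = 0.51). The pericyte and smooth muscle values given with Ndufa4l2 apply here too.

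Among the isoforms of striated muscle, Cox6a2 and Cox8b were dim. Cox6a2, the heart and skeletal muscle isoform, had a mean of 68.8 and was not tested. Cox7a1, another muscle-type isoform, read 720.1 to 865.3 in sham and 605.7 to 763.6 at 600 µg/l (log2 -0.15, SE 0.10, or -0.06 without 600 µg/l at 6 h). Cox8b read 201.4, 260.7 and 176.6 in sham and 159.1, 154.1 and 173.8 at 600 µg/l, with no overlap but a narrow gap at 20 h (log2 -0.30, SE 0.14, adjusted p = 0.52). Without 600 µg/l at 6 h the difference of Cox8b was -0.15. Skeletal muscle markers had a summed signal of 2310 to 2408 in sham and 2246 to 2357 at 600 µg/l, and heart muscle markers 2834 to 3308 and 2249 to 3473. Of the 5 heart muscle markers tested, 4 were negative at 600 µg/l, with a median of -0.31, and of the 4 skeletal muscle markers 3 were negative, with a median of -0.03. None of them passed. The heart actin gene Actc1 differed by -0.44 and Myl7 by -0.49, while Ankrd1 differed by 0.29. The part of muscle in the Cox8b values was not tested. The ubiquitous isoforms Cox6a1 and Cox8a differed by 0.03 (SE 0.08) and -0.01 (SE 0.09). Cox6b2, the testis isoform, had a mean of 40.8 and was not tested.

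Complex V had 15 genes, whose median at 600 µg/l was 0.00. Atp5f1b, the catalytic beta subunit, read 6187 to 6575 in sham and 6684 to 6891 at 600 µg/l without overlap (log2 0.09, SE 0.07, adjusted p = 0.69). Atp5pb, subunit b of the peripheral stalk, had the largest positive difference, 0.32 (SE 0.16, adjusted p = 0.54). It read 3484.9, 2318.9 and 3044.2 in sham and 3588.3, 3357.5 and 4042.7 at 600 µg/l, with the widest gap at 6 h, where sham was lowest. Atp5me, the dimmest, differed by -0.04 (SE 0.12). Atp5if1, which inhibits the hydrolysis of ATP by the enzyme, differed by 0.10 (SE 0.09).

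Of the 10 assembly factors, which help build the complexes but are not part of them, 9 were tested. Their median at 600 µg/l was -0.03, from -0.26 (Sdhaf4) to 0.15 (Ndufaf3). Cox7a2l, a factor of supercomplex assembly counted above with complex IV, differed by 0.02 (SE 0.07). The pseudogene Cox6c-ps1 and the assembly factor Sdhaf3 had mean signals of 111.0 and 125.5, and neither was tested.

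Counted over the chain, 5 of 85 genes (5.88%) had all 3 arrays of 600 µg/l above all 3 sham arrays and 4 (4.71%) had them below. Among all probe sets these shares were 6.98% and 7.42%. The 5 above were Ndufa4, Ndufab1, Ndufs1, Uqcrfs1 and Atp5f1b, and the 4 below were Ndufa4l2, Cox4i2, Cox8b and Sdhb. Of these, Cox8b met the signal filter only through sham and 300 µg/l arrays. The chain's shares were thus no higher than the background.

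At 300 µg/l the median difference of the 85 genes from sham was -0.02, with 37 positive and 48 negative values. By limma 0 passed (0.0458% of all probe sets did) and 4 had an unadjusted p under 0.05 (4.71%, beside 5.53% of all). Ndufb5, an accessory subunit of complex I, read 1063.5, 1201.7 and 1218.6 in sham and 862.8, 1029.5 and 961.6 at 300 µg/l, without overlap (log2 -0.28, SE 0.08, adjusted p = 0.63). At 600 µg/l it read 1065.5, 1127.0 and 1080.4, within the sham range. Ndufaf8, an assembly factor of complex I, read 504.1, 468.9 and 637.5 in sham and 437.8, 277.5 and 452.4 at 300 µg/l (log2 -0.43, SE 0.14, adjusted p = 0.71). Without 300 µg/l at 6 h, its lowest array, the difference was -0.26. All 3 arrays were above sham for 2 genes (2.35%, beside 4.12% of all probe sets) and below for 4 genes (4.71%, beside 4.32%).

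Set directly against 300 µg/l, the higher concentration gave a median of 0.01. No chain gene passed by limma (0.0204% of all probe sets did), and 2 had an unadjusted p under 0.05, beside 5.05% of all. Ndufa4l2 differed by -0.43 (SE 0.13, adjusted p = 0.86), Ndufb5 by 0.19 (SE 0.08) and Ndufab1 by 0.23 (SE 0.11). Without 600 µg/l at 6 h the Ndufa4l2 value was -0.27, and without 300 µg/l at 6 h the Ndufab1 value was 0.11.

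Macrophage markers changed in the same samples. Of 8 tested, 7 had positive differences at 600 µg/l and 1 a negative one (-0.16). Of the 7, 6 passed by limma at an adjusted p under 0.05, beside 0.514% of all probe sets. The summed signal of the markers was 18976 to 20394 in sham, 27853 to 30859 at 300 µg/l and 33417 to 37789 at 600 µg/l. The lysosomal protease gene Ctsd differed by 0.92 (SE 0.06, adjusted p = 0.00027 by limma). The share of the chain's signal that came from these or any other cells was not tested.

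Time after the last session was compared over the 3 exposures (n = 3 arrays per time). From 2 h to 6 h the chain's median difference was 0.05, with 54 positive and 31 negative values, against a median of 0.00 over all probe sets. The chain's median was 0.01 without 300 µg/l at 6 h, 0.03 without sham at 2 h and 0.09 without 600 µg/l at 6 h. None passed by limma (0.0153% of all probe sets did), and 5 genes, all with positive values, had an unadjusted p under 0.05 (5.88%, beside 10.8%). Ndufb6, a complex I accessory subunit, read 727.1, 935.1 and 688.2 at 2 h in sham, 300 and 600 µg/l. At 6 h it read 1023.2, 1175.2 and 947.9, above every 2 h array (log2 0.41, SE 0.13, adjusted p = 0.31). Ndufb8 differed by 0.39 (SE 0.16), or 0.16 without its low array at 600 µg/l and 2 h, and Atp5mc3, a gene for the membrane ring of ATP synthase, by 0.17 (SE 0.07).

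From 2 h to 20 h the median was also 0.05, with 53 positive and 32 negative values. None passed (0.0509% of all probe sets did) and 2 had an unadjusted p under 0.05, beside 11.4% of all. Ndufaf5, an assembly factor of complex I, read 245.8, 190.8 and 188.2 at 2 h and 331.4, 273.5 and 286.2 at 20 h in sham, 300 and 600 µg/l. The 20 h arrays were all above the 2 h arrays (log2 0.43, SE 0.12, adjusted p = 0.21). Atp5f1e, the epsilon subunit of ATP synthase, differed by 0.19 (SE 0.08), and Atp5mf, its subunit f, by 0.18 (SE 0.09). From 6 h to 20 h the median was -0.01. By limma 0 chain genes and 0% of all probe sets passed, with 4 genes at an unadjusted p under 0.05 (4.71%, beside 4.49%). Those with the smallest p were Ndufa4l2 (0.43, SE 0.13), Ndufaf8 (0.35, SE 0.14) and the complex I subunit gene Ndufc1 (0.27, SE 0.11). Ndufa4l2 differed by 0.27 without 600 µg/l at 6 h, and Ndufaf8 by 0.18 without 300 µg/l at 6 h and by 0.53 without 600 µg/l at 6 h.

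Whether the smoke difference itself depended on time was tested with both concentrations together against sham. The spread in this model is that between 300 and 600 µg/l at a time, so it holds no variation of sham arrays. No chain gene passed for 6 h against 2 h, as for 0% of all probe sets, with 5 genes at an unadjusted p under 0.05 beside 6.27% of all. Atp5pb had the smallest p (log2 0.82, SE 0.25, adjusted p = 0.68), and its low sham array at 6 h enters that value. Cox7c, a small complex IV subunit, came next with -0.61 (SE 0.19), its sham signals being 2026.5 at 2 h and 3029.8 at 6 h. Ndufa12, an accessory subunit of complex I, differed by -0.45 (SE 0.16).

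For 20 h against 2 h, 0.0102% of all probe sets and no chain gene passed, and 2 genes had an unadjusted p under 0.05, beside 3.45% of all. The smallest p belonged to Sdhaf4, an assembly factor of complex II (-0.66, SE 0.21), followed by Ndufaf3 (0.54, SE 0.20) and the ATP synthase proteolipid gene Atp5mpl (0.37, SE 0.20). For 20 h against 6 h, 0.00509% of all probe sets and no chain gene passed, and 3 genes had an unadjusted p under 0.05, beside 6.29%. These were Ndufa12 (0.50, SE 0.16), Cox7c (0.49, SE 0.19) and Sdhaf2, which helps attach the flavin to Sdha (-0.86, SE 0.37).

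The complexes can also be followed array by array, as the median deviation of a complex's genes from their own means over 9 arrays. For all 85 genes these medians ran from -0.06 (300 µg/l at 2 h) to 0.08 (300 µg/l at 6 h). The 300 µg/l arrays thus spanned the whole range, with -0.05 at 20 h, and sham (-0.03, 0.03 and 0.03) and 600 µg/l (0.00, -0.03 and 0.06) lay between. At 300 µg/l and 6 h the medians were 0.10 for complex I, 0.07 for II, 0.08 for III, 0.04 for IV and 0.09 for V, all positive. After 20 h at 300 µg/l they were -0.11, -0.10, -0.05, -0.04 and -0.03, all negative. At 600 µg/l and 6 h they were also all negative, from -0.12 for complex IV to -0.01 for complex III. At 300 µg/l the 9 tested assembly factors had a median of -0.10 at 2 h, on the same side as the complexes. Their medians were -0.05 at 6 h (quartiles -0.13 and 0.04) and 0.05 at 20 h (quartiles -0.01 and 0.12). These 2 were opposite in sign to those of the complexes, with quartiles on both sides of 0. The median over all type A probe sets was between -0.01 and 0.01 in each of the 9 conditions.

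**Figure D5:**
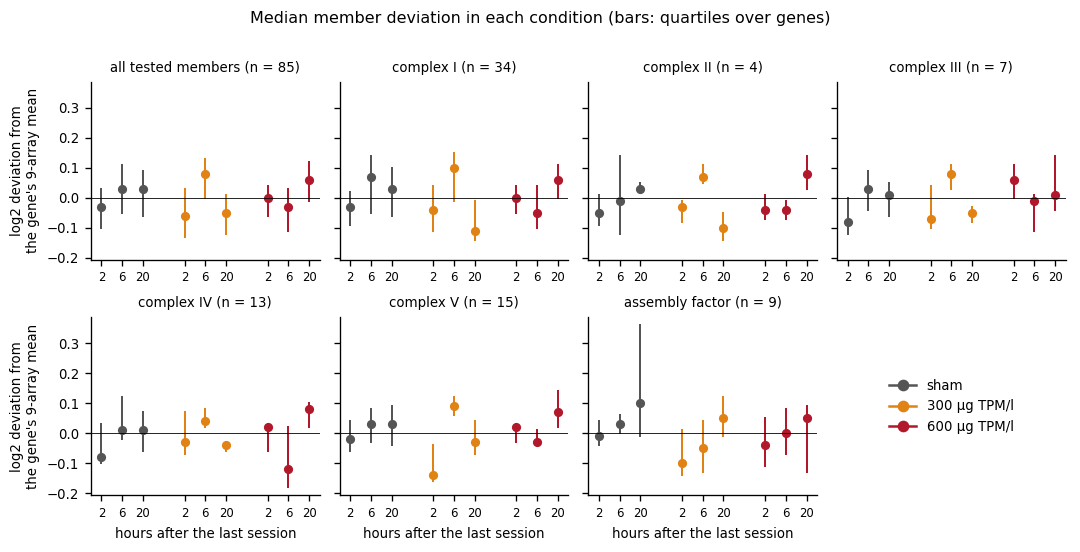
Median log2 deviation (y axis) of the genes of each complex from their own 9-array means, for each exposure (colour) and time after the last session (x axis, hours), with bars for the quartiles over genes. At 300 µg/l and 6 h all 5 complexes are above 0, and at 300 µg/l and 20 h all 5 are below. The assembly factors lie at -0.05 and 0.05 on these arrays. Sham arrays also have all 5 complexes on one side of 0, below at 2 h and above at 20 h.

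The spread of single genes was also read over the 9 arrays. The coefficient of variation had a median of 8.29% over the 85 tested genes, and 54 of them (63.5%) were under 10%. Among tested genes the widest was that of Ndufa4l2, 26.7%, followed by Sdhaf2 at 23.5%. No such value for other probe sets was set beside these, so they do not set the chain apart. For 12 genes more than 1 probe set matched. Of the 13 that were not used, 7 could be tested, and none passed at either concentration. The second probe set of Sdhd, for example, differed by 0.02 at 600 µg/l (SE 0.08), against 0.06 (SE 0.09) for the brighter, and that of Atp5f1c on type B by -0.33 (SE 0.16), against -0.04 (SE 0.07).

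Other genes of mitochondrial function were read from 6 lists, chosen with earlier results of these data known. No gene of any list passed in the comparisons of exposures or of times. Electron carriers and further assembly factors had 27 tested genes and a median of 0.02 at 600 µg/l. The ATP synthase assembly factor gene Atpaf1 had the smallest p there (0.32, SE 0.13). The 16 genes of the tricarboxylic acid cycle and pyruvate dehydrogenase had a median of 0.06, and the dihydrolipoamide dehydrogenase gene Dld differed by 0.34 (SE 0.12). Fatty acid oxidation, with 17 genes, had a median of -0.06. Its trifunctional protein gene Hadhb differed by 0.21 (SE 0.08) and its dienoyl-CoA reductase gene Decr1 by -0.22 (SE 0.09). The 22 genes of import and membrane organisation had a median of 0.07.

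Mitochondrial carriers, porins and uncoupling proteins had 13 tested genes and a median of 0.05. Slc25a5, an ADP/ATP carrier that supplies the ATP synthase, read 4896.3, 4831.9 and 4774.2 in sham and 5646.0, 5676.8 and 5781.4 at 600 µg/l. Its arrays did not overlap, with a log2 difference of 0.24 (SE 0.06, adjusted p = 0.18). The 17 tested regulators of mitochondrial gene expression had a median of 0.00. Gabpa, a subunit of the GABP factor, read 1111.3, 1344.3 and 1281.8 in sham and 969.7, 1150.6 and 878.6 at 600 µg/l on type B, overlapping ranges (log2 -0.31, SE 0.12, adjusted p = 0.43). Without the B array labelled sham at 2 h it differed by -0.35 (SE 0.16). Nrf1 differed by -0.24 (SE 0.14), or -0.37 (SE 0.16) without that array, and the coactivator gene Ppargc1a by 0.11 (SE 0.13), or -0.01 (SE 0.15). Tfam, which packages mitochondrial DNA, differed by -0.07 (SE 0.09).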

How the data were processed

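Rat lung RNA of 9 conditions was hybridised to Affymetrix arrays of 2 types, 1 array each. The authors deposited linear signal intensity, computed with MAS5 per the submitters' processing notes; no version, mask or genome build is given in the sources used here. Signals were used as log2(signal + 50), with the authors' scaling kept. A probe set was tested if at least 3 arrays reached the 40th percentile of signals, 183.8 for type A and 238.7 for type B. The linear models of limma 3.58.1 (R 4.3.3), with moderated variances that follow mean intensity, were fitted per type, with exposure and recovery time as additive terms (4 residual degrees of freedom), or smoke by time (3). Tests were two-sided, with Benjamini-Hochberg adjustment over both types at 0.05, and the code was tested on simulated data. Symbols came from the platform annotation, updated through Entrez identifiers, and promoters from RefSeq.

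In each comparison the 3 genes with the smallest p are named when none passed. Also named are the brightest and dimmest gene of each complex, Sdha to Sdhd, the complex IV tissue isoforms, Ndufa4l2 and Atp5if1. Genes whose arrays did not overlap, ends of ranges, other probe sets, the regulators Nrf1, Ppargc1a and Tfam, and Ndufs1, Uqcrfs1, Uqcrc2, Cox5a and Cox7a2l were chosen for the text after their values were seen. The members and lists were chosen with earlier results of these data known. Alternatives covered normalization, pseudocount, filter, variance trend, model, choice of probe set and left-out arrays. Interaction contrasts had no value without a sham condition of the times compared.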

Additional observations from a re-analysis of the deposited data

How the results depend on the processing

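The number of chain genes that passed was 0 in all 9 comparisons under every alternative run, 17 to 22 per comparison. For single genes, 44 results of chain genes named by the rule were recomputed, and none passed in any of the 824 values. The full set of alternatives was not run for the other genes named. The chain's median at 300 µg/l, -0.02, was -0.07 without 300 µg/l at 6 h, and ran from -0.07 to 0.01 when each condition was left out in turn. The median of 20 h against 2 h, 0.05, was 0.00 without 600 µg/l at 20 h, and ran from 0.00 to 0.09. The causes were not tested. At 600 µg/l, 8 genes with differences near 0 changed sign in 18 of those values. Under median scaling Cox8a turned from -0.01 to 0.01. Without the 20 h conditions Ndufa1 turned from 0.07 to -0.03 and Atp5me from -0.04 to 0.09. Leaving out single conditions gave ranges of -0.03 to 0.20 for Sdha, -0.08 to 0.14 for Sdhc, -0.03 to 0.11 for Cox6a1 and -0.10 to 0.07 for Cox8a. They gave -0.03 to 0.17 for Ndufa1, -0.10 to 0.03 for Ndufs4, -0.14 to 0.04 for Uqcr11 and -0.21 to 0.10 for Atp5me. Reversed values among these were -0.03 (Sdha), -0.08 (Sdhc), -0.01 and -0.03 (Cox6a1), 0.07 and 0.03 (Cox8a), -0.03 (Ndufa1), 0.02 and 0.03 (Ndufs4), 0.04 (Uqcr11), and 0.00, 0.10, 0.01 and 0.02 (Atp5me). Low signal limits the 4 untested genes and the dim Cox8b and Cox5a.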

Other observations

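Cox6a2, the striated muscle isoform of complex IV, had its highest signal in sham at 6 h, 127.3, and read at most 92.6 on the other 8 type A arrays. Cox8b was also highest on that array, with 260.7 against at most 216.3 elsewhere. Markers of muscle and fat were also read, most of them too dim to test. Of those on the arrays, 5 of 14 for heart muscle, 4 of 11 for skeletal muscle and 3 of 8 for adipose tissue were tested. Which array reads highest says little for dim genes. Of 28 such markers on type A arrays, 4 were highest in sham at 6 h, 1 of 10 for skeletal muscle (Ckm), 1 of 12 for heart muscle (Myh6) and 2 of 6 for adipose tissue (Ucp1 and Lep). These genes were chosen after their values were seen and nothing was tested. The complex IV subunit gene Cox5a had its highest signal, 286.8, at 300 µg/l and 20 h, and its other arrays read 158.5 to 243.1.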
